A study of Homo sapiens with 12 samples.

Results

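The genes described here are 36 human genes of glucose breakdown and of the response to low oxygen, measured in HepG2, an established hepatoma cell line. They are 23 genes of glycolysis (glucose and lactate transporters, the enzymes of the pathway and the kinases that set its flux) and 13 hypoxia genes, followed through 6 groups of Affymetrix arrays. A gene was taken where the platform annotation paired a probe set with that symbol alone, and its brightest such probe set was used. By that rule 33 of the 36 had values, among 18417 genes in all. SLC16A3 and CA9 were not listed in the annotation, and PGAM1 lay only on probe sets assigned to several genes, so none of these is given a value. Of the 33, 32 were bright enough to be tested, among 13813 genes tested, and they comprised 20 glycolysis and 12 hypoxia genes. HK1, the housekeeping hexokinase, had a mean of 4.57 on the log2 scale against the level of 4.58 required, and ranged over the 12 arrays from 4.38 to 4.80.

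The cells carried either a small-hairpin RNA directed at p53 (sh-p53) or a non-relevant control hairpin (sh-con), and there was 1 line for each hairpin. Whether either line is a clone or a pool is not given in the sources used here. A difference between the lines can therefore not be told apart from any other difference between these particular lines. Each line was exposed for 24 h to DMSO, the solvent control, to 10 uM Nutlin, which keeps MDM2 from binding p53, or to 0.5 mM AICAR, an activator of the energy-sensing kinase AMPK. The series presents both compounds as p53 stimulators. Every group held 2 arrays from biological duplicates, so p-values measure the spread between duplicates only, and precision is limited by the small number of arrays.

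Glycolysis turns glucose into pyruvate, which is reduced to lactate or passed to the mitochondria. When oxygen is scarce, the prolyl hydroxylases EGLN1 and EGLN3 no longer mark the transcription factor HIF1A for destruction, and HIF1A with its partner switches on glucose transporters, most glycolytic enzymes and genes such as BNIP3, ADM and P4HA1. Hypoxia markers and glycolytic enzymes are therefore often read as a single programme, and p53 is known to restrain glucose uptake and glycolysis in several cell types.

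HIF binds a short core, of which ACGTG is a form. The promoters of the members that results turn on are shown with ACGTG in capitals. The form GCGTG was neither marked nor counted. The set holds the members called in the same direction with AICAR in both lines and the member called in the Nutlin interaction, as far as the RefSeq promoter table (GRCh38.p14) lists them; SLC2A3 is not listed there. Each sequence is the 250 bases before the transcription start, 5′ to 3′ in the direction of the gene, with the core on either strand (ACGTG or CACGT) and the E-box CACGTG, which holds it, in capitals. The windows are SLC2A1 at chr1:42958869-42959118 on the minus strand, HK2 at chr2:74834920-74835169 on the plus strand, PDK1 at chr2:172555840-172556089 on the plus strand, ALDOC at chr17:28576896-28577145 on the minus strand, ADM at chr11:10304823-10305072 on the plus strand, ANKRD37 at chr4:185396591-185396840 on the plus strand and P4HA2 at chr5:132227092-132227341 on the minus strand. HK2 and PDK1 have 2 starts each in the table, and the start with more matches is shown.
SLC2A1: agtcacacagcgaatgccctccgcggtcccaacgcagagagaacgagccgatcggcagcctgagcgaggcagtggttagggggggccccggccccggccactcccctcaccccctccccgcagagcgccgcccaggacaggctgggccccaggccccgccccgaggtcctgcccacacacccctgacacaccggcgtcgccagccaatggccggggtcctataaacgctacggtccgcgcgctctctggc
HK2: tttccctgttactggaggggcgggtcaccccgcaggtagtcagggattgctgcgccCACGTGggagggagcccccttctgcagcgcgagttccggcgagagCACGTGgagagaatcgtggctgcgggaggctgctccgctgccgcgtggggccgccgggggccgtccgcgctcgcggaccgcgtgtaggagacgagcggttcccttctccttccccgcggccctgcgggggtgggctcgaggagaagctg
PDK1: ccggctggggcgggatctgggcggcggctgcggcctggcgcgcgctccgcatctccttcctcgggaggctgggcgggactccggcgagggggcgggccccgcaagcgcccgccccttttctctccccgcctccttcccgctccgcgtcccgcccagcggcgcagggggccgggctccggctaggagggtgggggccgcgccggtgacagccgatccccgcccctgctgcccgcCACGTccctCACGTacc
ALDOC: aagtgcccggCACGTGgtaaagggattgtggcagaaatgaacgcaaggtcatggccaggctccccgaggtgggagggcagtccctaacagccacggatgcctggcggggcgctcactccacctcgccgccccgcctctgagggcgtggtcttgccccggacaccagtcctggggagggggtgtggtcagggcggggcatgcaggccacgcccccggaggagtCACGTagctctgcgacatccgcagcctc
ADM: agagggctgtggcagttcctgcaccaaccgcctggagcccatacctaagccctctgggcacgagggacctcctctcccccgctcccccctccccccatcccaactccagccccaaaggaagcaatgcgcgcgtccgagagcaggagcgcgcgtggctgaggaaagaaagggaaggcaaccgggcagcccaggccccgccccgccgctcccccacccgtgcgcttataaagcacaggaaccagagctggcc
ANKRD37: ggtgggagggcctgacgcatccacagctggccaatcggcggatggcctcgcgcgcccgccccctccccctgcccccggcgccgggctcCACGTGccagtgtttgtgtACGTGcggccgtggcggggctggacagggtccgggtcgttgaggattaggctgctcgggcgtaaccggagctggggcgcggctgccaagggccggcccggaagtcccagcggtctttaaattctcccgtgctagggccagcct
P4HA2: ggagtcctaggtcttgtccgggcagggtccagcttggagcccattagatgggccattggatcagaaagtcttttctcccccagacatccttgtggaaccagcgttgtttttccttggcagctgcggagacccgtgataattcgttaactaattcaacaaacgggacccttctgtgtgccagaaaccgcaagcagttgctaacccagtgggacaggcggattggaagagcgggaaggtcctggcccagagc

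HK2 carried the E-box at 194 and 149 bases before its start, ALDOC an E-box at 240 bases and the core at 28, PDK1 the core at 17 and 8 bases, and ANKRD37 an E-box at 162 bases and the core at 143. SLC2A1, ADM and P4HA2 had no match to ACGTG or CACGT in these 250 bases. The letters GCGTG, which were not searched for, stand unmarked in the HK2, ALDOC and ADM windows. In the full windows of 300 bases (250 before and 50 after the start), the core was in 25 of 64 promoters of the 33 members listed (39.1%) and in 21.4% of all 35116 promoters. The shares were 38.8% for glycolysis and 40% for hypoxia genes. Counted by gene, 21 of 33 members (63.6%) held it in at least 1 promoter, against 24.9% of 27305 genes, but members had more starts per gene. A match describes the letters in the window and is neither a binding site nor a cause, and the absence of a match says nothing about HIF.

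Across the 12 arrays the medians over all probe sets lay between 5.64 and 5.84, and the duplicates of a group correlated across genes at r = 0.990 to 0.996. The hepatocyte markers were high in every array (list mean 11.69 to 11.97 over the 9 of 10 measured), and 6 of 6 endothelial markers lay below the level tested. Of 6 fibroblast markers DCN and LUM lay below it, while COL1A1, COL1A2, COL3A1 and PDGFRB had means of 6.47, 5.44, 5.64 and 5.81. Of 5 measured leukocyte markers PTPRC, CD3E and ITGAM lay below it, while CD14 had a mean of 5.59 and LYZ of 12.48. The list means per array ranged from 4.74 to 5.11 for fibroblast and from 5.85 to 6.22 for leukocyte markers, and their part in the results was not tested. The transcript that the p53 hairpin targets was not analysed here, but the p53 target CDKN1A read 7.06 and 6.93 in sh-con DMSO and 6.14 and 6.32 in sh-p53 DMSO, then 9.92 and 9.76 with Nutlin in sh-con, compared with 7.61 and 7.63 for sh-p53. With AICAR the control line read 9.31 and 9.21, and sh-p53 read 8.02 and 7.96. The p53 target MDM2 rose with Nutlin by 1.59 ± 0.14 in the control line (limma adjusted p = 6.12e-08) and by 1.32 ± 0.14 for sh-p53 (9.08e-05), and its interaction of -0.27 ± 0.19 was not called (0.481), whereas that of CDKN1A was -1.45 ± 0.19 (3.82e-05). A response to Nutlin was thus still measured in the line labelled sh-p53.

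The members themselves differed between duplicates in some groups. In sh-con Nutlin, replicate 1 was higher than replicate 2 for 29 of the 33 measured members, by a median of 0.29, against 61.2% of all genes tested and a median of 0.06. In sh-p53 Nutlin the same held for 29 of 33 (median 0.18, against 58.4% of all genes tested), and in sh-con AICAR for 26 of 33 (median 0.19, against 60.7%). In the other 3 groups the median difference lay between -0.03 and 0.04. Counts that depend on 1 of these arrays are given below with and without it. In bulk RNA, fewer cells expressing a gene and less of its transcript per cell cannot be told apart.

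**Figure D1:**
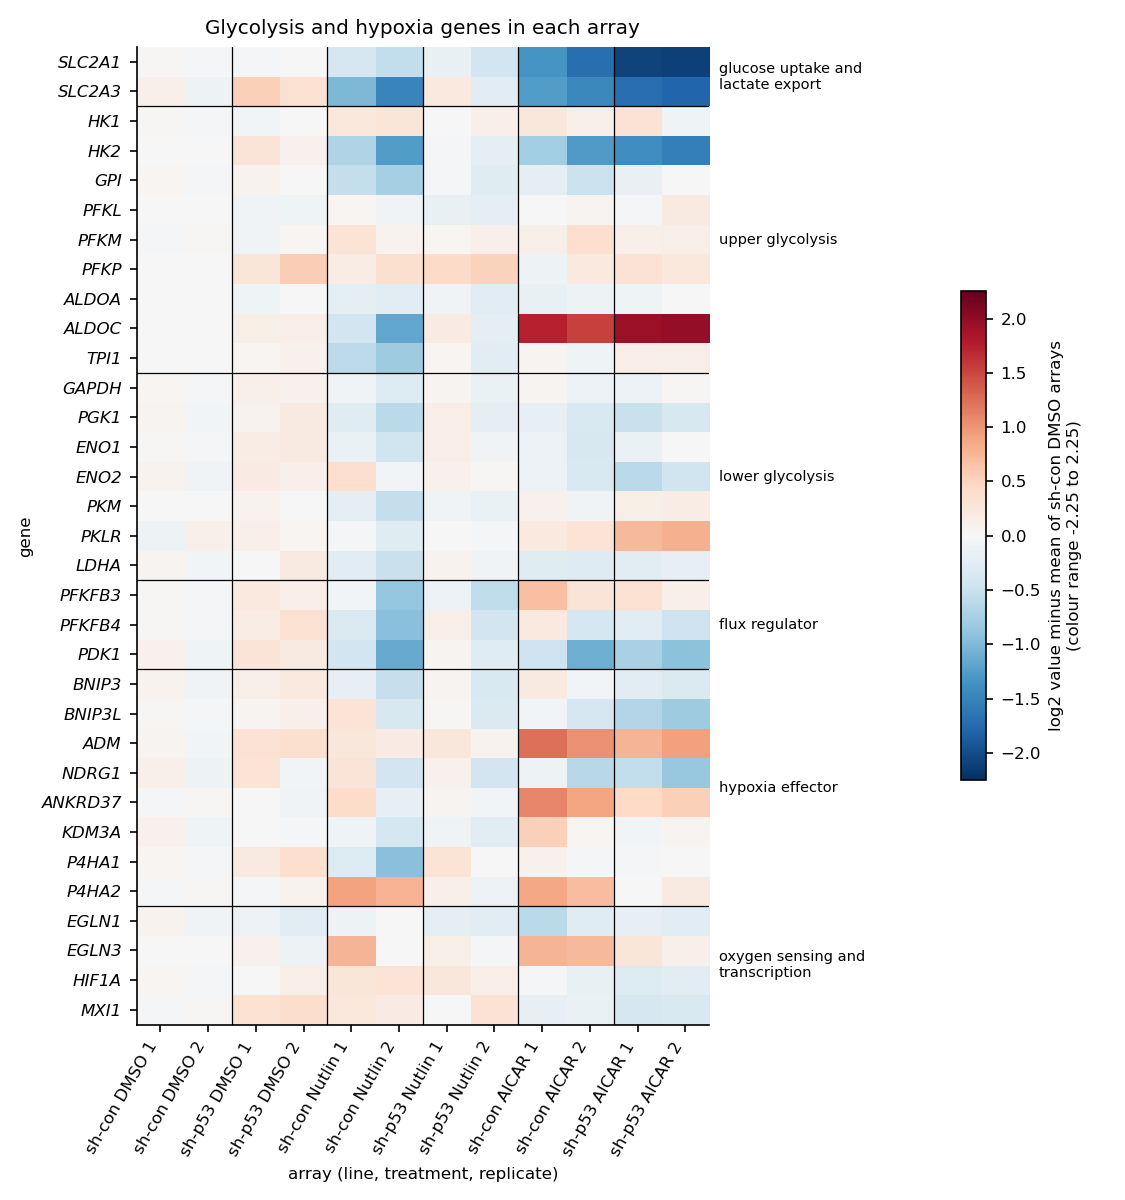
Values of each measured gene (rows, ordered by role) in each array (columns, by line and compound), coloured by the difference of its log2 value from the mean of the sh-con DMSO arrays. In the 4 AICAR arrays SLC2A1 (9.39 to 10.17), SLC2A3 (9.51 to 10.05) and HK2 (8.68 to 9.44) lie below all DMSO arrays of both lines, and ALDOC (9.95 to 10.38) lies above them.

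The first question was whether the lines differed in these genes before any compound was given. In DMSO, sh-p53 minus sh-con ranged over the 32 tested members from -0.19 to 0.43 on the log2 scale, and none was called (limma, Benjamini-Hochberg adjusted p under 0.05 over all genes tested), while 0.644% of all genes were called. At an unadjusted p under 0.05 there were 4 members, all higher in sh-p53. SLC2A3, the high-affinity glucose transporter, read 11.41 and 11.20 for sh-con, compared with 11.83 and 11.64 for sh-p53, a difference of 0.43 ± 0.18 (SE of the fit, as throughout; limma adjusted p = 0.691). ADM, a vasodilator peptide induced by hypoxia, differed by 0.34 ± 0.14 (adjusted p = 0.649, limma), MXI1, an antagonist of MYC, by 0.37 ± 0.14 (0.527) and PFKP, the platelet phosphofructokinase, by 0.41 ± 0.15 (0.523). PFKP and PFKM, the muscle form, had means of only 4.72 and 4.67, so their values hold mostly background. Of the 32 differences 24 were positive, with a median of 0.10 against -0.00 over all genes.

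With Nutlin in the control line many glycolysis genes fell, while most hypoxia genes did not pass the test. Of 20 glycolysis genes 10 fell and none rose, and of 12 hypoxia genes P4HA1 fell and P4HA2 rose. Together that was 11 of 32 lower and 1 higher, against 18.9% of all genes tested lower and 11.3% higher (limma, adjusted p under 0.05). The median change was -0.41 for glycolysis, 0.04 for hypoxia and 0.01 for all genes.

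At the entry of glucose, SLC2A3 read 11.41 and 11.20 in sh-con DMSO and 10.29 and 9.82 with Nutlin. The Nutlin arrays lay wholly below the DMSO arrays, and the fall of 1.24 ± 0.18 was the only member change of 2-fold or more (2.37-fold lower, limma adjusted p = 3.66e-05; 4.17% of all genes fell that far). SLC2A1, the basal glucose transporter, read 11.52 and 11.46 in DMSO and 11.12 and 10.93 with Nutlin, and fell by 0.47 ± 0.15 (limma adjusted p = 0.0275). HK2, the inducible hexokinase that traps glucose in the cell, read 10.22 and 10.21 and then 9.55 and 8.95. Its groups were also apart, and it fell by 0.97 ± 0.19 (adjusted p = 0.000795, limma).

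Further down the pathway, TPI1, the triose phosphate isomerase, read 11.28 and 11.31 in DMSO and 10.71 and 10.49 with Nutlin, and fell by 0.69 ± 0.14 (limma adjusted p = 0.00139). It was the only member with 2 probe sets of its own, and the dimmer set gave group means of 9.15 in DMSO and 8.37 with Nutlin. GPI, which isomerises glucose 6-phosphate, fell by 0.64 ± 0.15 (adjusted p = 0.00318, limma). ALDOC, the brain-type aldolase, read 8.41 in both DMSO arrays and 7.98 and 7.24 with Nutlin, a fall of 0.80 ± 0.19 (limma adjusted p = 0.00451). Its ubiquitous counterpart ALDOA was not called at -0.23 ± 0.13 (adjusted p = 0.192).

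In the lower pathway PGK1, which makes the first ATP, and LDHA, which makes lactate, fell least, by 0.44 ± 0.16 (limma adjusted p = 0.0411) and 0.38 ± 0.14 (0.0488). GAPDH (-0.20), ENO1 (-0.30), ENO2 (0.15), PKLR (-0.16) and PKM (-0.37, limma adjusted p = 0.0529) were not called. Of the regulators, PDK1, the kinase that inhibits pyruvate dehydrogenase, read 9.22 and 9.03 and then 8.69 and 7.99. It fell by 0.79 ± 0.22 (adjusted p = 0.0111, limma). The bifunctional PFKFB4, which sets the level of the phosphofructokinase activator fructose 2,6-bisphosphate, fell by 0.63 ± 0.22 (limma adjusted p = 0.0376), and its relative PFKFB3 read -0.47 ± 0.21 without being called.

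Among the hypoxia genes, the subunits of the collagen prolyl 4-hydroxylase went opposite ways. P4HA2 read 8.55 and 8.60 in sh-con DMSO and 9.48 and 9.36 with Nutlin, clear of each other, and rose by 0.85 ± 0.14 (1.80-fold, limma adjusted p = 0.000197). P4HA1 read 9.86 and 9.76 and then 9.50 and 8.87, and fell by 0.63 ± 0.18 (adjusted p = 0.0128, limma). HIF1A itself was at 0.29 ± 0.13, ADM at 0.22, EGLN3 at 0.39 ± 0.19 and the mitophagy receptor BNIP3 at -0.35 ± 0.16, none of them called.

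A fit without an array has less power for every gene, and the share of all genes called in such fits is not given here. Many of the Nutlin calls in sh-con depended on replicate 2 of sh-con Nutlin, the lower of its pair for most members. Without it 5 members were called, SLC2A3, HK2, TPI1 and P4HA2 as before and EGLN3, which then rose by 0.76 (limma adjusted p = 0.00509). The other 8 were no longer called. Without replicate 1, 14 were called. Without replicate 1 of sh-con DMSO 6 were called. A second quantile normalisation gave 3 higher and 8 lower, with ADM (0.37) and HIF1A (0.39) called in addition and PGK1, LDHA and PFKFB4 lost. It moved the changes over all genes by a median of 0.07. Of all genes 13.6% were then higher and 16.2% lower, against 11.3% and 18.9% as deposited, so calls over all genes moved the same way.

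**Figure D2:**
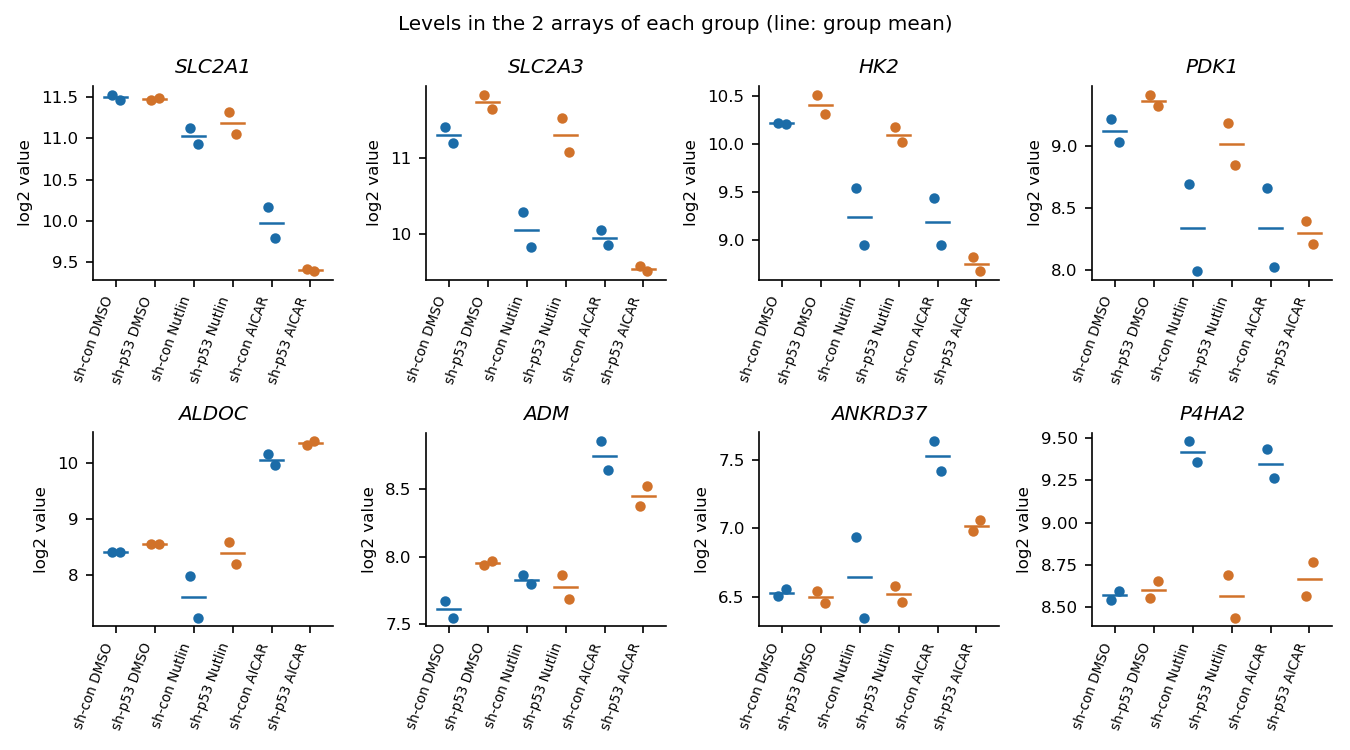
Level on the log2 scale (y axis) of SLC2A1, SLC2A3, HK2, PDK1, ALDOC, ADM, ANKRD37 and P4HA2 in each of the 12 arrays, grouped by compound (x axis) and coloured by line. P4HA2 with Nutlin lies at 9.36 and 9.48 in sh-con but at 8.44 and 8.69 in sh-p53, and ALDOC lies at 9.95 or above in all 4 AICAR arrays.

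In the line with the p53 hairpin, Nutlin gave no called member (limma), with 2 at an unadjusted p under 0.05. Of all genes 0.0796% were called. SLC2A3 read 11.83 and 11.64 in sh-p53 DMSO and 11.52 and 11.07 with Nutlin, a change of -0.44 ± 0.18 (limma adjusted p = 0.694). PFKFB3 was at -0.53 ± 0.21 (adjusted p = 0.687, limma). Changes ranged from -0.53 to 0.13, and 27 of 32 were negative, with a median of -0.15 against -0.02 for all genes.

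The response to Nutlin was then compared between the lines by the interaction, the response in sh-p53 minus that in sh-con. P4HA2 alone of the 32 members was called, whereas 7.40% of all genes were. In sh-p53 it read 8.55 and 8.65 in DMSO and 8.69 and 8.44 with Nutlin, which overlap, so its response of -0.04 ± 0.14 there stood against 0.85 in sh-con. The interaction was -0.89 ± 0.20 (95% interval -1.31 to -0.46, limma adjusted p = 0.00831), and leaving out any of the 8 arrays involved gave an adjusted p of 0.0458 or less.

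No glycolysis gene was called in this interaction, and 4 of the 20 had an unadjusted p under 0.05. SLC2A3 came nearest at 0.81 ± 0.25 (limma adjusted p = 0.0593), followed by HK2 at 0.65 ± 0.27 (0.170), ALDOC at 0.64 ± 0.27 (0.190) and TPI1 at 0.52 ± 0.20 (0.149). All 4 are positive, that is, the response was less negative in sh-p53. SLC2A3 passed under 5 alternatives other than leaving out an array, with adjusted p between 0.0116 and 0.0450, and without replicate 1 of sh-con Nutlin 5 members passed (SLC2A3, HK2, ALDOC, P4HA1 and P4HA2). The fall of glycolysis genes in sh-con, not called in sh-p53, is thus not shown to differ between the lines gene by gene, and for SLC2A3 the call depends on the setting.

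**Figure D3:**
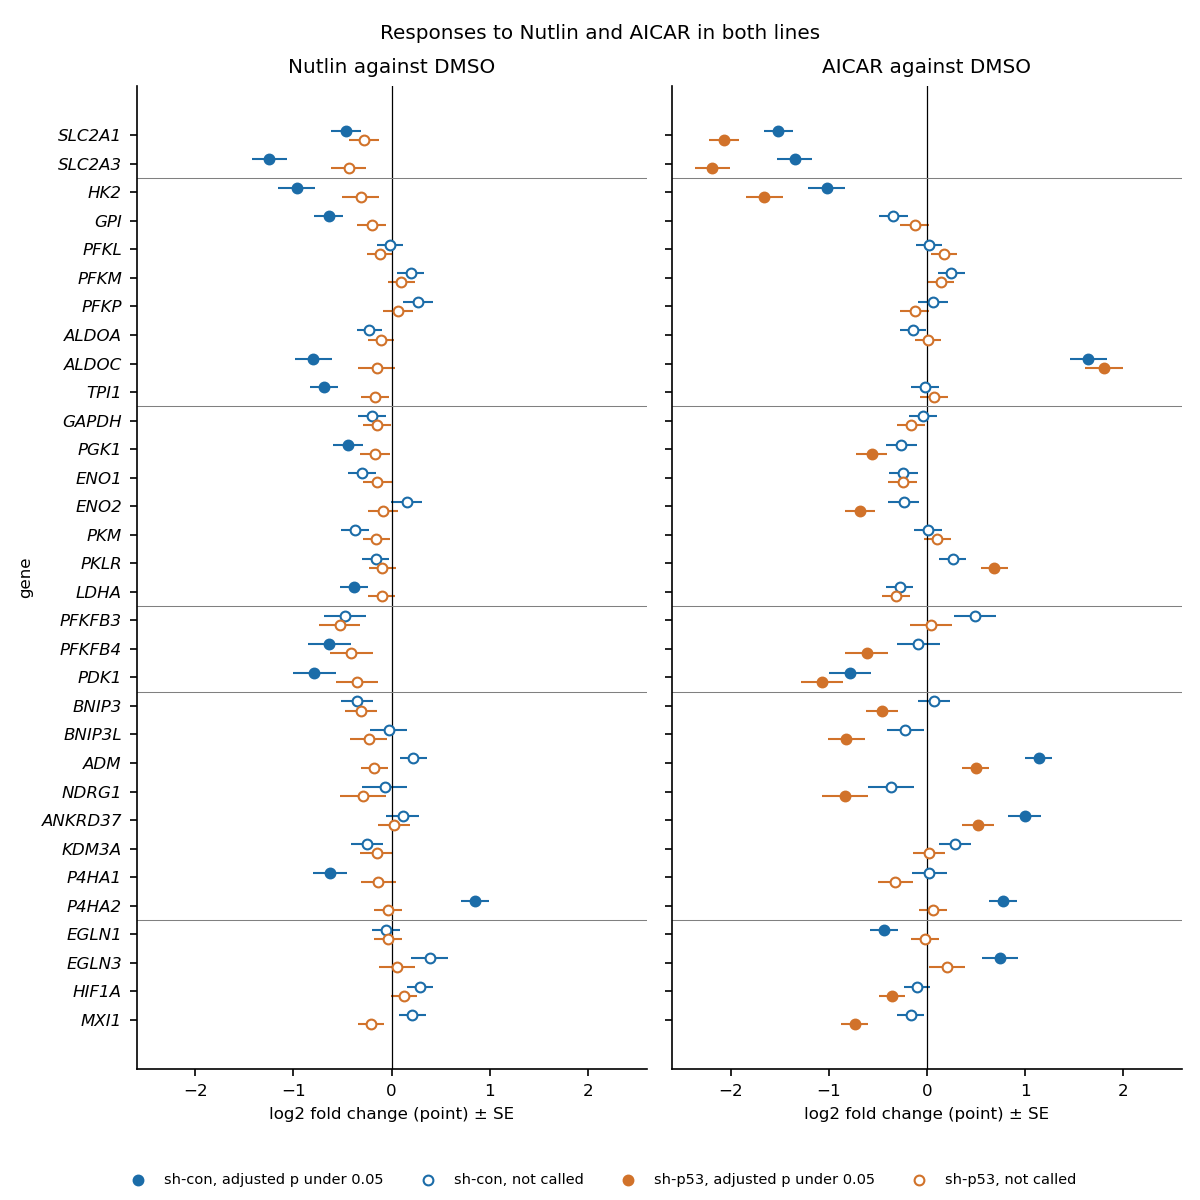
Response of each tested gene to Nutlin and to AICAR (log2 change from DMSO, x axis, with the SE of the fit as bars) in sh-con and sh-p53, with filled symbols where the limma adjusted p was under 0.05. With Nutlin every symbol of sh-p53 is open, and with AICAR SLC2A1, SLC2A3, HK2 and PDK1 are filled on the left and ALDOC, ADM and ANKRD37 on the right in both lines.

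With AICAR the glucose uptake and trapping genes SLC2A1, SLC2A3 and HK2 fell in both lines, and ALDOC rose. Hypoxia genes were called in both directions. In sh-con 5 members fell and 5 rose, against 23.2% of all genes lower and 14.6% higher. By class these were 4 lower and 1 higher of 20 glycolysis genes, and 1 lower and 4 higher of 12 hypoxia genes. In sh-p53 12 members fell and 4 rose, against 21.6% and 16.2% of all genes (limma, adjusted p under 0.05). There 7 fell and 2 rose among the glycolysis genes, and 5 fell and 2 rose among the hypoxia genes. Called in either direction were 31.2% of the members in sh-con and 50% in sh-p53, against 37.8% of all genes in each line. In sh-con the members were thus not called more often than all genes.

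Centring each array on its median moved the changes with AICAR by -0.14 over all genes in sh-con and by -0.15 in sh-p53. It gave 7 members lower and 5 higher in sh-con (all genes 28.4% and 7.99%), with GPI and LDHA called in addition, and 13 lower and 2 higher in sh-p53 (26.5% and 7.96%), where LDHA was added and the rises of ADM and ANKRD37 were lost.

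Of the glucose transporters, SLC2A1 read 11.52 and 11.46 in sh-con DMSO and 10.17 and 9.79 with AICAR, and in sh-p53 11.46 and 11.48 and then 9.41 and 9.39. The arrays of the compound lay more than a log2 unit under those of DMSO in both lines, with falls of 1.51 ± 0.15 (2.86-fold, limma adjusted p = 5.77e-07) and 2.07 ± 0.15 (4.19-fold, 2.64e-08). SLC2A3 read 10.05 and 9.86 with AICAR in sh-con, then 9.58 and 9.51 for sh-p53, again below both DMSO arrays of its line. It fell by 1.35 ± 0.18 (limma adjusted p = 1.17e-05) and 2.19 ± 0.18 (7.53e-08), the latter ranking 43 from the lowest of 13813 genes.

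HK2 read 9.44 and 8.95 with AICAR in sh-con. The sh-p53 arrays read 8.83 and 8.68 against 10.51 and 10.31 in DMSO, below them as in sh-con. HK2 fell by 1.02 ± 0.19 (limma adjusted p = 0.000344) and by 1.66 ± 0.19 (2.79e-06). PDK1 read 8.66 and 8.02 in sh-con, while sh-p53 read 8.39 and 8.20 against 9.42 and 9.32 in DMSO, and fell by 0.79 ± 0.22 (limma adjusted p = 0.00835) and 1.07 ± 0.22 (0.00083). The sh-con call of PDK1 was lost without replicate 1 of DMSO or replicate 2 of AICAR. SLC2A1, SLC2A3 and HK2 were called in both lines under every alternative tried.

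ALDOC moved the other way. It read 10.16 and 9.95 with AICAR in sh-con against 8.41 in DMSO, and 10.33 and 10.38 in sh-p53 against 8.55 in both DMSO arrays. It rose by 1.65 ± 0.19 (3.13-fold, limma adjusted p = 3.26e-06) and 1.81 ± 0.19 (3.50-fold, 1.38e-06), called under every alternative. ALDOA stayed uncalled at -0.14 ± 0.13 and 0.01 ± 0.13, so the aldolase paralogues were unlike in this comparison.

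Most enzymes below aldolase were not called with AICAR. In sh-con none of the 7 tested lower-pathway genes was called (limma, none at an unadjusted p under 0.05 either). In sh-p53 ENO2, the neuronal enolase, fell by 0.68 ± 0.15 (limma adjusted p = 0.00215) and PGK1 by 0.56 ± 0.16 (0.00912). PKLR, the liver pyruvate kinase, read 6.52 and 6.44 in sh-p53 DMSO and 7.13 and 7.20 with AICAR, and rose by 0.69 ± 0.14 (adjusted p = 0.000798, limma). PFKFB4 fell by 0.61 ± 0.22 in sh-p53 (limma adjusted p = 0.0366), a call lost without any 1 of the 4 arrays compared. GAPDH, TPI1, PKM, GPI, PFKL, LDHA and ENO1 lay between -0.34 and 0.17 in both lines without being called.

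The hypoxia genes went in both directions. ADM read 7.67 and 7.55 in sh-con DMSO and 8.85 and 8.64 with AICAR, and rose by 1.14 ± 0.14 (2.20-fold, limma adjusted p = 4.88e-06). In sh-p53 it read 7.94 and 7.97 and then 8.38 and 8.53, and rose by 0.50 ± 0.14 (adjusted p = 0.00862, limma). ANKRD37, a small ankyrin-repeat protein induced by HIF, read 6.51 and 6.56 and then 7.63 and 7.42 in sh-con, a rise of 1.00 ± 0.17 (limma adjusted p = 0.000141). All AICAR arrays of these 2 genes lay above the DMSO arrays of their line.

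In sh-p53 ANKRD37 read 6.54 and 6.46 and then 6.98 and 7.06, and rose by 0.52 ± 0.17 (limma adjusted p = 0.0206), a call lost without any 1 of the 4 arrays compared. P4HA2 read 9.44 and 9.26 with AICAR in sh-con, a rise of 0.78 ± 0.14 (adjusted p = 0.000327, limma), and 8.57 and 8.77 in sh-p53, a change of 0.06 ± 0.14 (0.744). EGLN3 rose in sh-con by 0.74 ± 0.19 (limma adjusted p = 0.00411), and EGLN1 fell by 0.43 ± 0.14 (0.0240), the last lost without replicate 1 of sh-con DMSO or of sh-con AICAR.

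The other 5 hypoxia genes called lower were called in sh-p53, and for none of them was the difference between the lines called. MXI1 read 6.75 and 6.81 in DMSO and 6.03 and 6.06 with AICAR, well apart, and fell by 0.74 ± 0.14 (limma adjusted p = 0.000371). BNIP3L, a mitophagy receptor like BNIP3, read 9.02 and 9.06 and then 8.29 and 8.15, and fell by 0.82 ± 0.19 (adjusted p = 0.00227, limma). NDRG1, a stress-induced growth regulator, fell by 0.84 ± 0.23 (limma adjusted p = 0.00917), BNIP3 by 0.46 ± 0.16 (0.0327) and HIF1A by 0.36 ± 0.13 (0.0415). The calls of BNIP3 and HIF1A were lost without any 1 of the 4 arrays compared, and those of NDRG1 and ADM without replicate 1 of sh-p53 DMSO or replicate 2 of sh-p53 AICAR. Without either of those arrays 10 members were called in place of 16, of which 2 were hypoxia genes.

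The AICAR comparisons of the lines share no arrays, so their lists can be set side by side. Of the members that fell, SLC2A1, SLC2A3, HK2 and PDK1 were common to both, 80% of the sh-con list and 33.3% of the sh-p53 list, against 72.2% and 77.4% for all genes. Of those that rose, ALDOC, ADM and ANKRD37 were common, 60% and 75%, against 57.7% and 52.3%. The interaction, which tests the difference of the responses, called no member (limma; 1.01% of all genes were called, 0.304% higher and 0.709% lower, or 0.109% and 0.536% after centring) and had 9 with an unadjusted p under 0.05. Among these, SLC2A3 was at -0.84 ± 0.25 (limma adjusted p = 0.127), SLC2A1 at -0.55 ± 0.21 (0.258), HK2 at -0.64 ± 0.27 (0.310), P4HA2 at -0.72 ± 0.20 (0.107) and ADM at -0.64 ± 0.19 (0.132). MXI1 was at -0.57 ± 0.19 (limma adjusted p = 0.186), BNIP3 at -0.53 ± 0.23 (0.332) and BNIP3L at -0.60 ± 0.27 (0.349), and PKLR, at 0.42 ± 0.20 (0.386), was the only positive member of the 9.

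By class, 11 of the 12 hypoxia genes had a negative AICAR interaction, that is, a lower response in sh-p53, with a median of -0.50, while the 20 glycolysis genes had a median of -0.11 and all genes 0.02. EGLN1 was the exception at 0.42 ± 0.20. None of these was called, and the wider list of 44 other hypoxia genes tested had a median of only -0.09, with 15 positive.

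**Figure D4:**
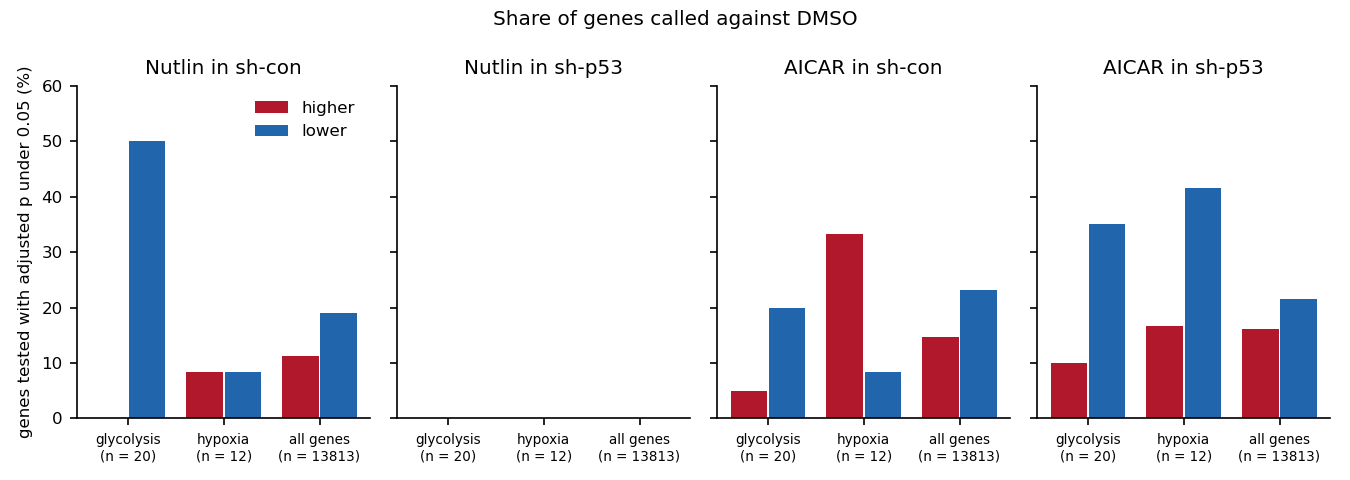
Share of tested genes called higher or lower (percent, limma adjusted p under 0.05) for glycolysis genes (n = 20), hypoxia genes (n = 12) and all genes (n = 13813) with each compound in each line. With Nutlin in sh-con 50% of the glycolysis genes and 8.33% of the hypoxia genes are lower, against 18.9% of all genes. Many of these Nutlin calls depend on the lower array of the sh-con Nutlin pair, as described above. With AICAR in sh-con 33.3% of the hypoxia genes are higher, against 14.6% of all genes.

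Within a line both compounds were compared with the same DMSO arrays, so the responses are given side by side and the compounds were compared directly. In sh-con SLC2A1, SLC2A3, HK2 and PDK1, 4 of 32, fell with both compounds (9.23% of all genes did), and P4HA2 rose with both (4.59%). GPI, TPI1, PGK1, LDHA, PFKFB4 and P4HA1 were called lower with Nutlin and not called with AICAR (8.27% of all genes). ADM, ANKRD37 and EGLN3 were called higher with AICAR and not called with Nutlin (8.62%), and ALDOC fell with Nutlin and rose with AICAR (1.43%). The counts lower in both and higher with AICAR alone lay near the share of all genes. A call with 1 compound alone does not show that the compounds differ. Arrays with Nutlin against arrays with AICAR gave 4 members higher and 9 lower, against 17.9% and 16.9% of all genes (limma). ALDOC was lower with Nutlin by 2.44 ± 0.19 on the log2 scale (limma adjusted p = 1.72e-08), ADM by 0.92 ± 0.14 (4.02e-05), ANKRD37 by 0.88 ± 0.17 (0.000392) and TPI1 by 0.67 ± 0.14 (0.00113). SLC2A1 was higher with Nutlin by 1.05 ± 0.15 (adjusted p = 2.61e-05, limma).

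These 5 passed under every alternative, and the other 8 did not. PFKFB3 (-0.96 ± 0.21, limma adjusted p = 0.00171), P4HA1 (-0.65 ± 0.18) and KDM3A, a histone demethylase (-0.54 ± 0.17), were lost without replicate 2 of sh-con Nutlin, which left 6 members called. PKLR, PKM, HIF1A, MXI1 and EGLN1 differed by 0.43 or less and were lost there too. After centring, 5 were higher and 6 lower. SLC2A3, HK2 and P4HA2 were not called, at 0.10 ± 0.18 (95% interval -0.27 to 0.48), 0.05 ± 0.19 (-0.34 to 0.45) and 0.07 ± 0.14. Nor were GPI, PGK1, LDHA, PFKFB4 and EGLN3, although each was called against DMSO with 1 compound alone.

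In sh-p53 the same contrast gave 8 members higher with Nutlin and 5 lower, against 19.0% and 15.6% of all genes, and 10 and 3 after centring (21.8% and 9.72%), which moved this contrast by 0.11 over all genes. SLC2A1 was higher with Nutlin by 1.78 ± 0.15 (limma adjusted p = 1.51e-07), SLC2A3 by 1.75 ± 0.18 (8.83e-07) and HK2 by 1.34 ± 0.19 (2.74e-05). ALDOC was lower by 1.96 ± 0.19 (limma adjusted p = 6.43e-07), PKLR by 0.78 ± 0.14 (0.000274) and ADM by 0.68 ± 0.14 (0.000904). These 6 passed under every alternative. PDK1 (0.72), ENO2 (0.59), BNIP3L (0.59), MXI1 (0.53) and HIF1A (0.48) were also higher and PFKFB3 (-0.57) and ANKRD37 (-0.49) lower, each lost without at least 1 array. Leaving out replicate 1 of sh-p53 AICAR left 8 members called.

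Other genes of the pathways were counted from lists of 39 glycolysis and 51 hypoxia names, of which 29 and 44 were tested. With Nutlin in sh-con 9 of the glycolysis list fell and 4 rose, and 12 of the hypoxia list fell and 5 rose (limma; 18.9% of all genes fell and 11.3% rose). The median change was -0.08 for the glycolysis list and -0.18 for the hypoxia list, so the order of the members' classes, -0.41 against 0.04, was not seen in these lists. TIGAR, the p53-induced fructose 2,6-bisphosphatase, read 7.59 and 7.53 in DMSO and 9.39 and 9.40 with Nutlin, and rose by 1.83 ± 0.19 (limma adjusted p = 5.86e-07). LOX, a collagen cross-linking oxidase induced by HIF, read 9.65 and 9.43 and then 7.43 and 6.78, and fell by 2.43 ± 0.23 (adjusted p = 2.30e-07, limma). The urate and glucose transporter SLC2A9 rose by 1.13, the glycogen branching enzyme GBE1 rose by 1.34, and SLC16A7, a monocarboxylate transporter, fell by 1.07.

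With Nutlin in sh-p53 neither list had a called gene (limma), with 3 and 2 at an unadjusted p under 0.05. The Nutlin interaction was called for 4 of 29 genes of the glycolysis list and 2 of 44 of the hypoxia list, against 7.40% of all genes. Among them were TIGAR (-1.19 ± 0.26, limma adjusted p = 0.00646), SLC2A9 (-0.97 ± 0.20), GBE1 (-1.40 ± 0.28) and LOX (2.07 ± 0.32, adjusted p = 0.000301), each called under every alternative. The enolase ENO3 (0.94) and SLC16A7 (0.80) were also called but lost without, among others, replicate 1 of sh-con DMSO.

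With AICAR 7 of the glycolysis list fell and 4 rose in sh-con, and 7 fell and 3 rose in sh-p53. Of the hypoxia list 13 fell and 3 rose in sh-con, and 16 fell and 3 rose in sh-p53. Of all genes 23.2% fell and 14.6% rose with AICAR in the control line, while for sh-p53 21.6% fell and 16.2% rose, so the glycolysis counts in sh-con lay near the share of all genes. SLC2A2, the liver glucose transporter, read 8.51 and 8.43 in sh-con DMSO and 7.11 and 6.82 with AICAR, and fell by 1.50 ± 0.15 in sh-con and by 1.98 ± 0.15 in sh-p53 (limma adjusted p = 7.04e-07 and 4.43e-08). PPP1R3C, a glycogen-targeting subunit of protein phosphatase 1, rose by 2.45 ± 0.20 and 2.26 ± 0.20, and the histone demethylase KDM4C fell by 1.93 in both lines. TIGAR rose with AICAR in sh-con by 1.44 ± 0.19 (limma adjusted p = 9.68e-06) and was at 0.12 ± 0.19 in sh-p53 (0.621). Its AICAR interaction, -1.32 ± 0.26, was called (limma adjusted p = 0.0207), as were those of DDIT4, an inhibitor of mTORC1 signalling (-1.17 ± 0.26), and ENO3 (0.95), but each was lost without at least 1 array. These were 2 of 29 genes of the glycolysis list and 1 of 44 of the hypoxia list, against 1.01% of all genes. In DMSO neither list had a called gene (limma), with 4 and 0 genes at an unadjusted p under 0.05.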

How the data were processed

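HepG2 cells were plated at 700000 per well, and 200 ng of their total RNA (TRI reagent, biotin label) went on each Affymetrix Human Gene array, per the labels' protocols. Line and compound were taken from each title, giving 6 groups of 2 arrays. The deposited values are on the log2 scale, from 2.14 to 14.33. The submitters' processing notes name RMA, which corrects background, normalises by quantiles and summarises probes, and Partek; neither versions nor settings are given in the sources used here. Quantile normalisation makes the arrays alike, which can hide a shift shared by most transcripts. Dim probe sets read mostly background, their changes are compressed, and no detection call comes with the values. The transcript targeted by the p53 hairpin is not reported here.

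Of 33297 probe sets the platform annotation, which can be old, gave 1 symbol to 19460, several to 1754 and did not list 12083. The brightest probe set with 1 symbol stood for a gene (18417 genes, 769 with more than 1 such set). The dimmest 4604 genes, below the 25th percentile of gene means (4.58), were not tested. Group means of 12 arrays were fitted in 1 model with limma 3.58.1 (R 4.3.3, package data.table in version 1.17.8), with 6 residual and 11.3 prior degrees of freedom and a prior SD of 0.154. A call needed a Benjamini-Hochberg adjusted p below 0.05 (2-sided, over all genes of each of 9 comparisons). With 2 arrays against 2, an exact permutation test cannot go below p = 0.333, so none was used. The fit was tested on simulated data. Promoter letters were counted in the RefSeq promoter table (GRCh38.p14). The members and lists were chosen with earlier results of these data known. Named were all called members, with array values for those called at 2-fold or more or in an interaction and for further members where useful, and up to 4 called genes of the other lists per comparison. Alternatives were a second quantile normalisation, centring on array medians, no filter, a filter at the 40th percentile, the mean over probe sets, the replicate number as a block, array weights, an intensity trend, only the arrays compared, and leaving out each array.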

Additional observations from a re-analysis of the deposited data

Results flagged for a closer look

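The response of P4HA2, the collagen prolyl 4-hydroxylase subunit, to Nutlin differed between the lines by the interaction test, at -0.89 ± 0.20 on the log2 scale (sh-p53 response minus sh-con response, limma adjusted p = 0.00831). It rose in both sh-con duplicates and had overlapping values in sh-p53. The same contrast with AICAR was -0.72 ± 0.20 and was not called (limma adjusted p = 0.107). It was called after a second quantile normalisation (limma adjusted p = 0.0271) and with the intensity trend (0.0427), so that call depends on the setting. Both contrasts use the same DMSO arrays.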

How the results depend on the processing

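Of the 65 calls of members, none changed direction under any alternative. A second quantile normalisation and centring each lost 7 and kept 58. Dropping the filter lost 5, array weights and fitting only the arrays compared lost 6 each, and the intensity trend lost 1. The filter at the 40th percentile and the mean over probe sets lost none. Leaving out arrays in turn lost 78 of 264 repeated calls.

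The Nutlin interaction had 2 members called in place of 1 with quantiles again, the 40th-percentile filter, array weights or only the arrays compared, and 3 with the intensity trend. The AICAR interaction had 2 in place of 0 with quantiles again (ADM and P4HA2) and with the intensity trend (SLC2A3 and P4HA2). Quantiles again also gave more calls over all genes. In the AICAR interaction 0.956% were higher and 1.56% lower, against 0.304% and 0.709% as deposited. In the Nutlin interaction 5.01% were higher and 4.24% lower, against 4.67% and 2.73%. For the other settings named here the shares over all genes are not given. Nutlin against AICAR in sh-con had 8 in place of 13 with array weights and with only the arrays compared. The cause was not tested.

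Leaving out each array gave 0 to 0 members called between the lines in DMSO, 5 to 14 with Nutlin and 8 to 11 with AICAR in sh-con, 0 to 0 and 10 to 11 in sh-p53, 1 to 5 and 0 to 0 in the Nutlin and AICAR interactions, and 6 to 13 and 8 to 12 for Nutlin against AICAR in sh-con and sh-p53. The lone array left in a group was assumed to vary like the others.

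The labels do not say that replicate numbers pair the samples. Deviations correlated between -0.558 and 0.567 over 15 pairs of groups, 7 above 0.1 and 7 below -0.1. The 3 sh-con groups and sh-p53 Nutlin correlated with each other at 0.25 to 0.57, and sh-p53 DMSO with sh-p53 AICAR at 0.26, so a shared factor among these groups is a hint from the data. With the number as a block, 62 of 65 calls were kept. Lost were LDHA with Nutlin in sh-con, HIF1A with AICAR in sh-p53 and EGLN1 between the compounds in sh-con. The Nutlin interaction then had 2 members. The block gives all groups the same replicate effect, so it cannot remove a factor with opposite signs between groups. Signal near background limits PFKM and PFKP.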
